A study of Mus musculus with 16 samples.

Results

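The mRNA levels of 9 genes were followed in mouse embryos with excess Kat6b: Map1a, Nes, Nova2, Adgrl1, Nrk, Med13l, Masp2, Kbtbd11 and Tti2. They are 9 of 26411 genes counted in whole embryos at embryonic day (E) 9.5, taken by symbol, and were chosen by their log2 fold changes and false discovery rates between Kat6a+/+Tg(Kat6b) and Kat6a+/+Kat6b+/+ embryos in the same libraries. All 9 passed the filter on low counts, which kept 15679 genes. The study has 16 embryos, 4 of each genotype. Kat6a+/+Kat6b+/+ is the wild type, Kat6a-/-Kat6b+/+ lacks functional KAT6A, Kat6a+/+Tg(Kat6b) carries extra Kat6b with KAT6A present, and Kat6a-/-Tg(Kat6b) carries extra Kat6b without KAT6A. Mice were FVB x BALB/c hybrids. The Tg(Kat6b) allele is a multicopy insertion of a bacterial artificial chromosome clone that holds the whole Kat6b gene with its flanks, so Kat6b was driven by its own regulatory sequence, and the null Kat6a allele lacks a block of exons.

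KAT6A and KAT6B are paralogous histone acetyltransferases that act in complexes with BRPF scaffold proteins and acetylate histone H3 at genes active in patterning of the embryo. At this stage the neural tube is largely made of dividing progenitors, which contain the intermediate filament protein nestin, and the first neurons have begun to form. The 9 genes do not belong to a single pathway. Map1a encodes a microtubule-associated protein of neurons, Nes encodes nestin, Nova2 encodes an RNA-binding protein that regulates alternative splicing in neurons, and Adgrl1 encodes latrophilin 1, an adhesion receptor for teneurins and FLRT proteins. Nrk encodes a serine/threonine kinase of the germinal centre kinase family and Med13l a subunit of the kinase module of Mediator, which links transcription factors to RNA polymerase II. Masp2 encodes a serine protease that starts the lectin pathway of complement, Kbtbd11 a protein with BTB and kelch domains, and Tti2 a partner of TELO2 and TTI1 in a co-chaperone that stabilises mTOR, ATM and related kinases.

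The genes lie on 7 chromosomes, all on the plus strand, in GRCm39 coordinates from the GENCODE annotation. Map1a is at chr2:121120071-121141313, Nes at chr3:87878385-87887758, Nova2 at chr7:18659789-18699244, Med13l at chr5:118698347-118903503, Masp2 at chr4:148686985-148700447 and Nrk at chrX:137815142-137911281. The other 3 are on chromosome 8, as is Kat6a at chr8:23349545-23433275. Kbtbd11 at chr8:15061025-15083333 is 8.27 Mb from Kat6a, Tti2 at chr8:31640336-31655425 is 8.21 Mb from it, and Adgrl1 at chr8:84626588-84668583 is 61.2 Mb from it.

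Promoters were in the RefSeq table (GRCm38.p6) for 7 of the 9 genes. Kbtbd11 and Tti2 had no entry. The 250 bases before the start of 5 of them are shown 5′ to 3′ on the gene's strand, with every GGGCGG motif, the GC box bound by SP family factors, in capitals on either strand (CCGCCC is its reverse complement). The first 3 belong to the genes that were lower with the transgene at an edgeR false discovery rate under 0.05 in both Kat6a states, and the last 2 to Nrk and Masp2, whose log2 fold changes in the Kat6a+/+ and Kat6a-/- embryos had opposite signs. They cover chr2:121289352-121289601, chr3:87970843-87971092, chr7:18925638-18925887, chrX:138914180-138914429 and chr4:148602294-148602543 of GRCm38.p6.
Map1a: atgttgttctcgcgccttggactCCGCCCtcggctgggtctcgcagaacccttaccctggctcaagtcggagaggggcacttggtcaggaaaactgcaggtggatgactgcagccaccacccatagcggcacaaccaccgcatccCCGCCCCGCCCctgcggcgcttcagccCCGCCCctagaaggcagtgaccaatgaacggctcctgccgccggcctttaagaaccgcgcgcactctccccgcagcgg
Nes: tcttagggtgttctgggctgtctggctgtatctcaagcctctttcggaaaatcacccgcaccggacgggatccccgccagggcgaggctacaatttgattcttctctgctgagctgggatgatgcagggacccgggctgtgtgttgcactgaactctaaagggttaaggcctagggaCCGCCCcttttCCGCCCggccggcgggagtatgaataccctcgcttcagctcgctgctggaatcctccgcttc
Nova2: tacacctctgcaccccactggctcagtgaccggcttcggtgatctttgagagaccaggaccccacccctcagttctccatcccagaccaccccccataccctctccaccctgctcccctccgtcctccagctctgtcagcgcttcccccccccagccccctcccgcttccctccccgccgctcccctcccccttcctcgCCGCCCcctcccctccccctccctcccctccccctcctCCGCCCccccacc
Nrk: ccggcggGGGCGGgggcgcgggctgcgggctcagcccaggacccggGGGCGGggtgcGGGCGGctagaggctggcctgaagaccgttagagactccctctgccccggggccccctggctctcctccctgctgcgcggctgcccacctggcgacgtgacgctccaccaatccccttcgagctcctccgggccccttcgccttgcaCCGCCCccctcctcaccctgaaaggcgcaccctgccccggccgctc
Masp2: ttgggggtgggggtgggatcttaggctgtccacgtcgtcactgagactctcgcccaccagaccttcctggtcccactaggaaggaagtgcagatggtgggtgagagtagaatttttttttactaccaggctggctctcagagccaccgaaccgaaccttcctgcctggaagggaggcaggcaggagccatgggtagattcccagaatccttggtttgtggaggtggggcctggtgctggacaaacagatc

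The motif was found 4 times before Map1a, where 2 of the matches overlap, 4 times before Nrk, 2 times each before Nes and Nova2, and not before Masp2. Of the promoters not shown, Adgrl1 held 2 matches and Med13l 3. Over all 32851 promoters that RefSeq lists there, 32.7% held at least 1 match in the same window. The 6 genes with the motif had a GC content of 58.8% to 84.0%, and Masp2 had 56.8%, beside a median of 52.4% over all promoters. CG dinucleotides numbered 51 before Med13l, 24 before Nrk, 21 before Map1a and before Adgrl1, 15 before Nes, 10 before Nova2 and 5 before Masp2, beside a median of 6. None of the 7 windows held TATAAA, which 12.4% of all promoters held. The letters CANNTG were present before Map1a (2 matches), Nrk (1) and Masp2 (1), and in 66.2% of all promoters. These matches describe the sequence and are not evidence of binding.

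Each library held between 14407277 and 45665680 counts on genes. Levels are given as CPM, a gene's counts scaled to the same library total in every embryo, with the totals adjusted by the trimmed mean of M-values (TMM), whose factors lay between 0.985 and 1.02. In each list of 4 values the embryos stand in the order of replicates 1 to 4. For wild type these came from litters 801, 803, 2597 and 2598, the first 2 male and the last 2 female. For Kat6a-/-Kat6b+/+ they were 2 females of litter 801 and 2 males of litter 803. For Kat6a+/+Tg(Kat6b) they were a male, a female and a male of litter 2597 and a female of litter 2598. The Kat6a-/-Tg(Kat6b) embryos were a male, a female and a male of litter 483 and a female of litter 498, litters that held no other genotype, so genotype and litter cannot be told apart in comparisons with that group. Mean Kat6b levels were 46.2 ± 2.45 CPM (wild type), 49.1 ± 2.03 CPM (Kat6a-/-Kat6b+/+), 192 ± 29.7 CPM (Kat6a+/+Tg(Kat6b)) and 197 ± 4.92 CPM (Kat6a-/-Tg(Kat6b)), each as mean ± SD with n = 4. Kat6a counts cover the whole gene, and its mean was between 179 and 202 CPM in every genotype, so they do not check the deletion.

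Per base of listed gene length, given as RPKM (CPM per kilobase), the genes spanned a wide range in wild type. Nes was highest at 72.8 ± 6.5 RPKM, followed by Adgrl1 at 14.9 ± 0.494, Med13l at 8.19 ± 0.423, Kbtbd11 at 7.89 ± 0.569, Nova2 at 4.77 ± 0.503, Map1a at 4.45 ± 0.499, Tti2 at 3.95 ± 0.214, Nrk at 2.1 ± 0.344 and Masp2 at 0.627 ± 0.233 RPKM (SD, n = 4). Med13l and Kbtbd11 were within 1 SD of each other, as were Nova2 and Map1a, and the ranges of mean ± SD of Map1a and Tti2 also overlapped. This order describes levels and was not tested.

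The contrast that chose the genes is given first, as a description. Log2 fold changes, the log2 of the ratio of 2 genotypes, come from an edgeR model of all 16 embryos with 2 surrogate variables, which are estimated patterns of variation that genotype does not account for. Of the 15679 genes, 22 (0.14%) had a Benjamini-Hochberg false discovery rate (FDR) under 0.05 when Kat6a+/+Tg(Kat6b) embryos were set against the wild type, 13 of them lower (0.0829%) and 9 higher (0.0574%). The 9 genes followed here are among the 22, with FDR from 0.00981 for Map1a to 0.0423 for Masp2. Of these, 6 were lower and 3 were higher with the transgene. The nearest genes outside the threshold were Hivep1 and Igf2bp1 at 0.0526 and Snhg7 at 0.0613, and those nearest to it inside were Masp2, T and Cdx2 at 0.0423. The other 13 of the 22 include Kat6b itself and Nefm, a neurofilament subunit.

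Among the genes of the cytoskeleton, Map1a was at 57.4, 45.5, 58.1 and 51.1 CPM in wild type and at 31.4, 40.3, 44.1 and 38.7 CPM in Kat6a+/+Tg(Kat6b) embryos. All transgenic embryos were below all wild-type embryos, the nearest by little, and the log2 fold change was -0.50 (SE 0.0736). Nes was at 487, 392, 458 and 447 CPM in wild type and 367, 398, 412 and 387 CPM in the transgenic embryos. Here the groups overlapped, since wild-type replicate 2 was below 2 transgenic embryos, and the log2 fold change was -0.21 (SE 0.0403).

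Nova2 was at 45.4, 35.4, 40.5 and 38.4 CPM in wild type and at 30.4, 32.7, 38.0 and 31.0 CPM with the transgene, a log2 fold change of -0.30 (SE 0.0572). Transgenic replicate 3 was above wild-type replicate 2, and the other 3 transgenic embryos were below all wild types. For the receptor gene Adgrl1, wild-type embryos were at 126, 125, 118 and 120 CPM and transgenic embryos at 98, 109, 109 and 93.9 CPM. The groups were separate, with a log2 fold change of -0.25 (SE 0.0429).

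Nrk, the kinase gene on the X chromosome, showed the lowest log2 fold change of the 9 genes, at -0.64 (SE 0.109). Its levels were 15.4, 10.9, 15.9 and 13.2 CPM in wild type and 7.44, 10.4, 9.11 and 10.0 CPM in the transgenic embryos, with both sexes lower. Med13l was at 79.3, 71.9, 80.0 and 74.2 CPM in wild type and 55.5, 66.4, 66.0 and 69.2 CPM with the transgene, a log2 fold change of -0.27 (SE 0.0518). Neither gene overlapped between the genotypes, and for both the lowest value was that of transgenic replicate 1.

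The remaining 3 genes were higher with the transgene. Masp2, the least abundant of the 9, was at 1.35, 1.44, 2.41 and 2.88 CPM in wild type and 4.01, 3.97, 4.86 and 4.28 CPM in Kat6a+/+Tg(Kat6b) embryos, a log2 fold change of 1.06 (SE 0.212). The wild-type embryos of litters 801 and 803 were both below those of litters 2597 and 2598, and 3 of the 4 transgenic embryos came from litter 2597. Kbtbd11 was at 58.8, 56.7, 49.5 and 55.1 CPM in wild type and 64.1, 65.6, 74.9 and 71.4 CPM with the transgene (log2 fold change 0.33, SE 0.0554). Tti2 was at 20.4, 21.4, 19.4 and 19.0 CPM in wild type and 26.4, 23.3, 26.9 and 24.3 CPM with the transgene (log2 fold change 0.35, SE 0.0652). For all 3 genes the lowest transgenic embryo was above the highest wild type. These groups did not overlap for 7 of the 9 genes, nor for 4% of all genes tested.

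**Figure D1:**
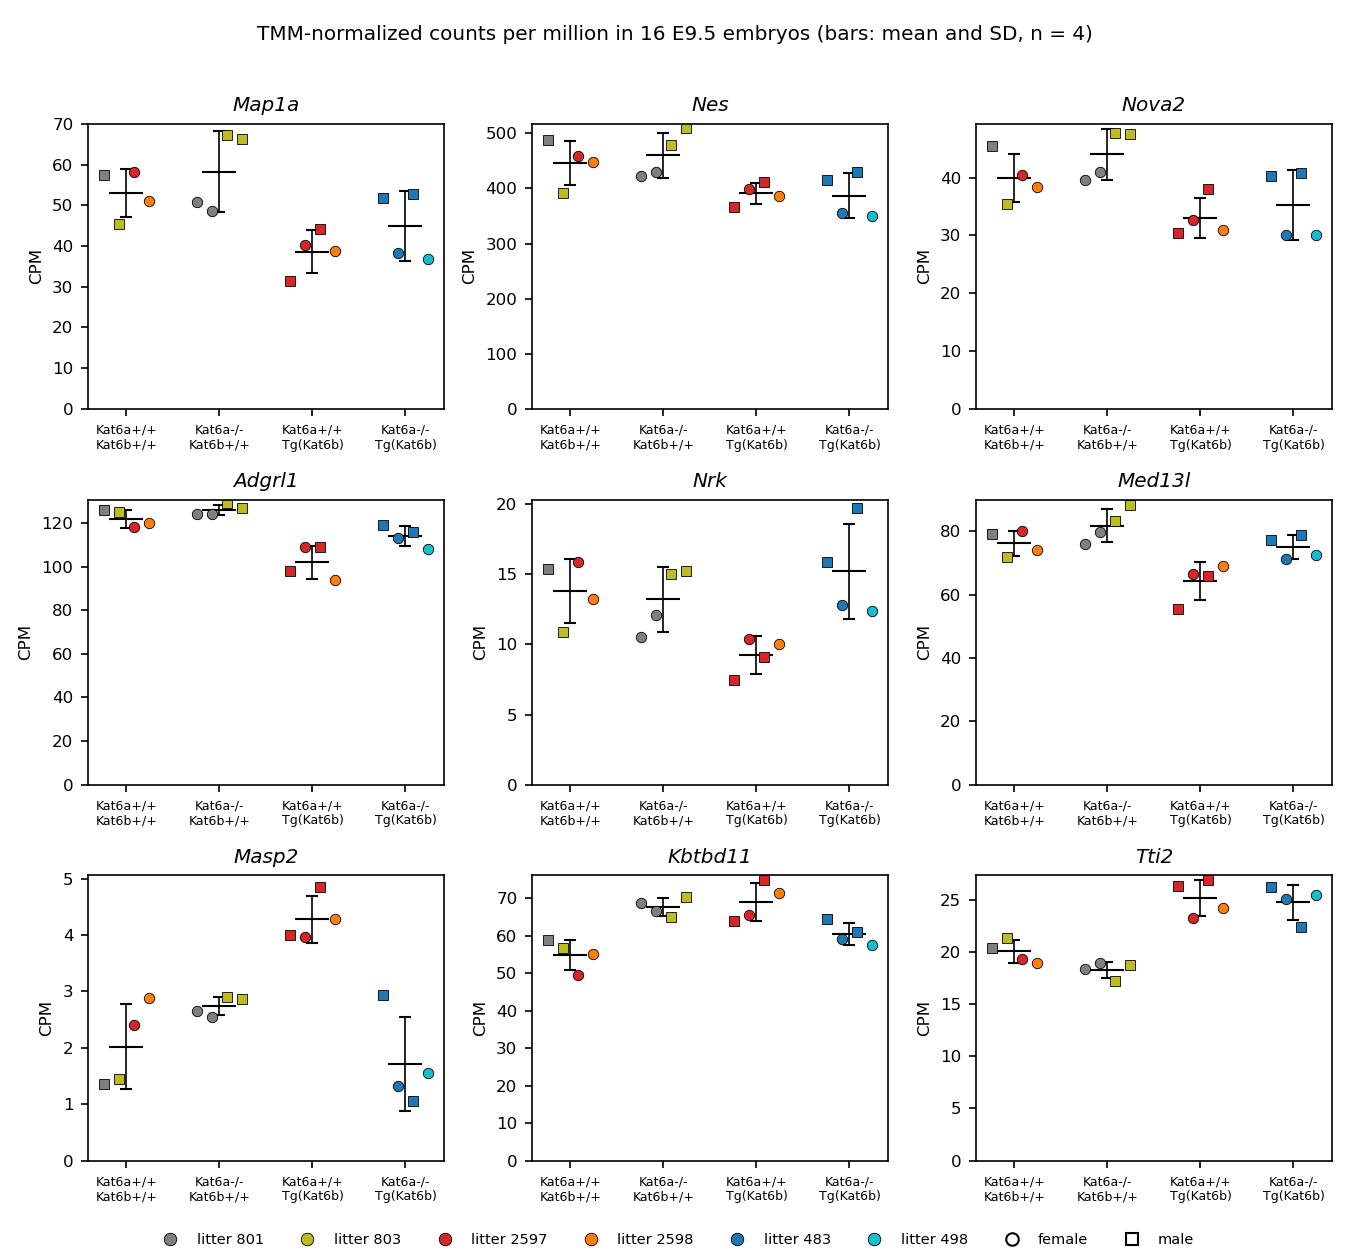
CPM of each gene (y axis, from 0) in the 16 embryos, by genotype (x axis); points are embryos, coloured by litter with circles for females and squares for males, and black bars are the mean and SD of 4 embryos. Tti2 is high in both transgenic genotypes (22.4 to 26.9 CPM, beside 17.2 to 21.4 without the transgene), whereas Masp2 spans 3.97 to 4.86 CPM in the Kat6a+/+Tg(Kat6b) group and 1.05 to 2.93 CPM elsewhere, and Nrk is lowest in Kat6a+/+Tg(Kat6b).

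Only litters 2597 and 2598 held both wild-type and Kat6a+/+Tg(Kat6b) embryos, so each transgenic embryo was also set against the wild-type embryo of its own litter. Each of the 4 transgenic embryos differed from its littermate in the direction of the group contrast for 9 of 9 genes. The directions were fixed by the choice of the genes and 3 of the 4 ratios share wild-type replicate 3, so this count is no separate evidence. The 2 ratios between females, 1 in each litter, compare embryos of 1 sex and litter. In litter 2597 and litter 2598 the log2 ratio of Map1a was -0.53 and -0.40, that of Nes -0.20 and -0.21, and that of Nova2 -0.31 and -0.31. Adgrl1 differed more between the litters, at -0.12 and -0.35, as did Med13l at -0.27 and -0.10, and Nrk was at -0.61 and -0.40. The genes that were higher had ratios of 0.72 and 0.57 for Masp2, 0.41 and 0.37 for Kbtbd11 and 0.26 and 0.35 for Tti2. The Masp2 ratios were thus below the group log2 fold change of 1.06, and with only the 6 embryos of these litters and litter as a block its log2 fold change was 0.73 (SE 0.196). In that fit edgeR left 0 of the 9 genes with an FDR under 0.05, as it did with the 8 embryos of these genotypes alone, where 3 of all genes (0.0197%) passed.

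**Figure D2:**
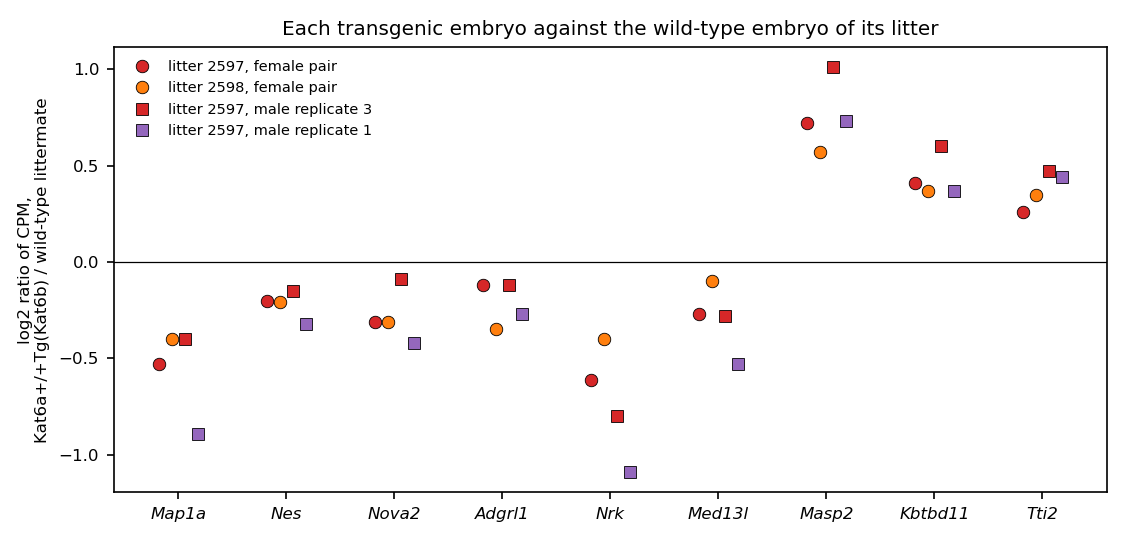
Log2 ratio of CPM (y axis) of each Kat6a+/+Tg(Kat6b) embryo to the wild-type embryo of its litter, for the 9 genes (x axis); circles are female pairs and squares are male transgenic embryos set against a female wild type. All ratios of a gene lie on 1 side of 0, and transgenic replicate 1 (purple) has the lowest ratios for Map1a (-0.89), Nrk (-1.09), Med13l (-0.53), Nova2 (-0.42) and Nes (-0.32), that is for 5 of the 6 genes that were lower.

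Gene length was examined because long genes were depleted in 1 library. In Kat6a+/+Tg(Kat6b) replicate 1 the 933 genes over 8000 bases with a mean of at least 1 CPM lay at a median of -0.27 on the log2 scale relative to the remaining transgenic embryos of that genotype, while the same value for the other 15 libraries was between -0.10 and 0.13. Its 3455 genes of up to 2000 bases had a median of 0.14. The genes followed are mostly long. Map1a has a listed length of 11912 bases, Med13l 9323, Nova2 8372, Adgrl1 8188, Kbtbd11 6973, Nrk 6604, Nes 6126, Tti2 5080 and Masp2 3219, beside a median of 3116 over the genes tested. The 6 that were lower had a median length of 8280 bases.

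In transgenic replicate 1 the log2 CPM differed from the mean of the other 3 transgenic embryos by -0.40 for Nrk, -0.38 for Map1a, -0.28 for Med13l, -0.15 for Nova2, -0.14 for Kbtbd11, -0.12 for Nes and Masp2, -0.08 for Adgrl1 and 0.09 for Tti2. Over all genes longer than 8000 bases the median log2 fold change of Kat6a+/+Tg(Kat6b) vs. Kat6a+/+Kat6b+/+ was -0.15, beside 0.03 for genes of up to 2000 bases. The values were closer to 0 in the other transgenic libraries: the median log2 ratio of these long genes to the littermate was -0.14 for replicate 2, -0.11 for replicate 3 and -0.07 for replicate 4, beside -0.40 for replicate 1. When length was modelled with an offset for each gene and library, the log2 fold changes moved to -0.30 (SE 0.0472) for Map1a, -0.19 (SE 0.0523) for Nova2, -0.13 (SE 0.0407) for Adgrl1 and -0.12 (SE 0.0376) for Med13l. The last 3 of these no longer had an FDR under 0.05, so 6 of the 9 genes were left past the threshold, while 40 of all genes (0.255%) passed. Nrk at -0.61 (SE 0.103), Nes at -0.18 (SE 0.0340) and Masp2 at 0.99 (SE 0.206) changed little, and Kbtbd11 at 0.41 (SE 0.0514) and Tti2 at 0.38 (SE 0.0668) were slightly higher. Without transgenic replicate 1, Map1a (-0.41, SE 0.0623) and Kbtbd11 (0.40, SE 0.0535) alone stayed past the threshold, among 8 genes in all.

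**Figure D3:**
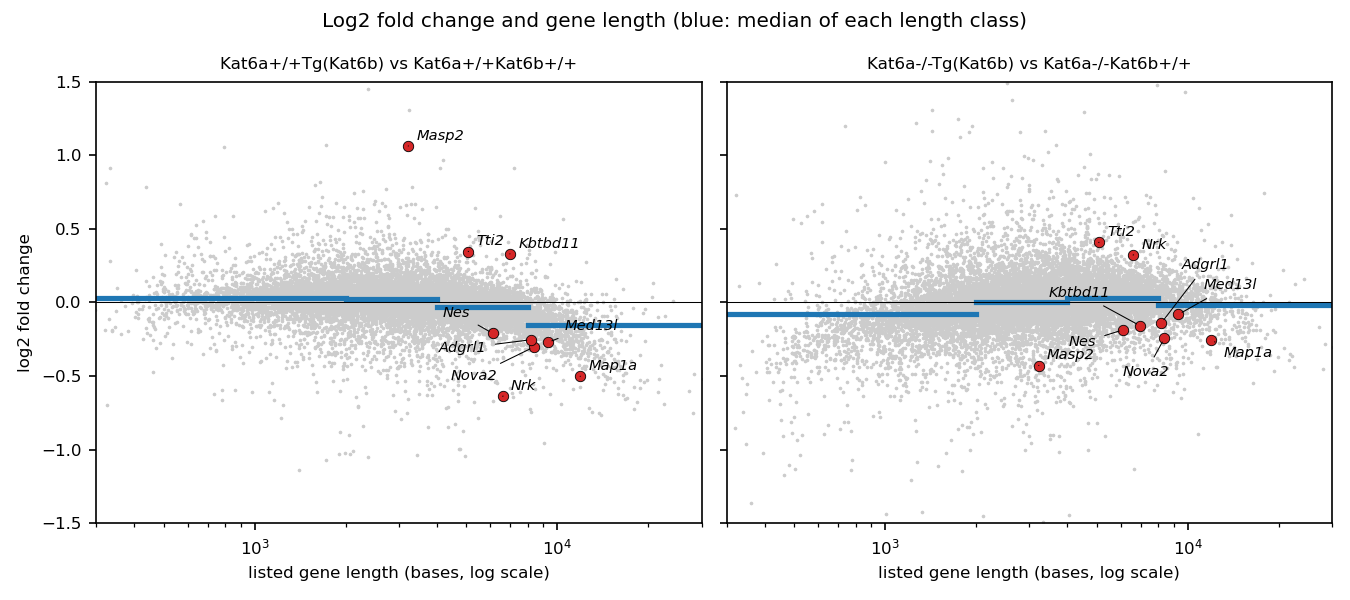
Log2 fold change (y axis) against listed gene length (x axis, log scale) for genes with a mean of at least 1 CPM, in grey, with the 9 genes in red and the median of each length class as a blue line; points beyond the axes are not drawn. In the left panel the medians fall from 0.03 to -0.15 with length. In the right panel, where the transgene was compared in Kat6a-/- embryos, the median is -0.08 up to 2000 bases and -0.02 over 8000 bases.

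The genes were then compared between Kat6a-/-Tg(Kat6b) and Kat6a-/-Kat6b+/+ embryos, 8 embryos that share none with the contrast above. Both contrasts came from the same model, with shared surrogate variables and variance estimates, so the choice of genes was not independent of these embryos. The fit of the 8 embryos alone does not share those estimates. The groups have no litter in common, so neither fit can separate a response to the transgene from litter. Map1a, Nes and Nova2 fell and Tti2 rose with the transgene, each in the direction seen with KAT6A present, and the other 5 genes did not pass the edgeR test. In this contrast 1119 genes (7.14%) were differentially expressed, 587 lower (3.74%) and 532 higher (3.39%) by edgeR at an FDR under 0.05. The 4 of 9 genes stand beside that 7.14%, which is not an even reference. Genes chosen for a low FDR in the shared model can also have low variance estimates here. At an unadjusted p under 0.05 it was 7 of the 9, beside 23.2% of all genes. These 7 include Nrk and Kbtbd11, whose signs were opposite to those with KAT6A present. With length offsets 6 of the 9 passed, beside 8.35%, and with the 8 embryos alone 7 of the 9, beside 15.2%. Both counts include Kbtbd11 in the opposite direction. The median log2 fold change was -0.16 over the 9 genes, whose signs were mixed, and -0.005 over all genes. By length class the median here was -0.08 up to 2000 bases, 0.0 from 2000 to 4000, 0.03 from 4000 to 8000 and -0.02 over 8000 bases. The part of length in these differences was not tested.

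Tti2 was at 18.4, 19.0, 17.2 and 18.8 CPM in Kat6a-/-Kat6b+/+ and at 26.3, 25.1, 22.4 and 25.5 CPM in Kat6a-/-Tg(Kat6b) embryos. All 4 transgenic embryos were above all 4 others, and it rose by a log2 fold change of 0.41 (SE 0.0662, edgeR FDR = 0.00106). It passed in each of the 27 other fits of this contrast. It overlaps Mak16, a ribosome biogenesis gene on the opposite strand, over 13.0% of its exon bases. Mak16 itself had a log2 fold change of 0.15 (SE 0.0382, edgeR FDR = 0.0218) here and 0.11 (SE 0.0375) with KAT6A present. The strand setting of the counting is not stated and the kit does not mark strand, so reads of the overlap cannot be told apart.

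Map1a was at 50.7, 48.5, 67.2 and 66.3 CPM without and 51.8, 38.3, 52.8 and 36.7 CPM with the transgene (log2 fold change -0.26, SE 0.0738, edgeR FDR = 0.0405). Nes was at 422, 430, 479 and 509 CPM without and 415, 355, 429 and 350 CPM with it (-0.19, SE 0.0415, edgeR FDR = 0.0103). Nova2 was at 39.6, 40.9, 47.7 and 47.6 CPM without and 40.3, 30.0, 40.8 and 30.1 CPM with it (-0.24, SE 0.0575, edgeR FDR = 0.0140). The groups overlapped for all 3 genes. In both genotypes the 2 females were below the 2 males, and the males of the transgenic group were near the females of the other. In the Kat6a-/-Kat6b+/+ group the sexes are also the litters. The 3 calls depend on how this variation is handled. Without surrogate variables the edgeR FDR was 0.179 for Map1a, 0.0855 for Nes and 0.113 for Nova2, while a fit of the 8 embryos alone with sex as covariate gave 3.57e-06, 3.17e-06 and 0.000134. Without Kat6a-/-Tg(Kat6b) replicate 4, a female, none of the 3 passed, with FDR of 0.180, 0.0658 and 0.0763. Map1a was the least stable of the 3 genes. When the 16 embryos were dropped in turn, it passed in 6 of 16 runs, beside 15 of 16 for Nes and for Nova2.

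Neuronal genes moved beside these 3. Over all genes, 3.74% fell and 3.39% rose with the transgene in the Kat6a-/- embryos. Of 20 genes of early neurons, 7 fell in that contrast and none rose, with a median log2 fold change of -0.18. They include the neurofilament genes Nefm (-0.48, SE 0.0612), Nefl (-0.41, SE 0.0677) and Ina (-0.36, SE 0.0656), the neuronal tubulin gene Tubb3 (-0.36, SE 0.0528) and the microtubule regulators Stmn2 (-0.44, SE 0.0842) and Dcx (-0.42, SE 0.106), with edgeR FDR from 9.58e-05 to 0.0256. Summed over the 20 genes, these embryos reached 435 to 612 CPM, against 592 to 712 CPM without the transgene. The 2 lowest sums, 435 and 437 CPM, belonged to the 2 transgenic females that were also lowest in Map1a, Nes and Nova2. With KAT6A present the sums overlapped, at 570 to 746 CPM with the transgene and 507 to 740 CPM in wild type, where the lowest value was that of the embryo of litter 803. Within litters, the transgenic embryos of litter 2597 were at 570, 588 and 746 CPM beside 687 CPM in the wild type, and that of litter 2598 was at 633 CPM beside 740, so 3 of the 4, both females among them, were below their littermate. The part of this in the lower Map1a, Nes and Nova2 levels was not tested. The part of neuron number in the Kat6a-/- differences was not tested, and in whole embryos fewer neurons and less mRNA per neuron cannot be told apart. The 14 other genes of neural progenitors, among them Sox2, Pax6 and Vim, summed to 1880 to 2110 CPM with the transgene and 1970 to 2090 CPM without. None of them fell and Slc1a3 rose (0.23, SE 0.0654, edgeR FDR = 0.0380), so Nes was the only progenitor gene of the list that fell.

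**Figure D4:**
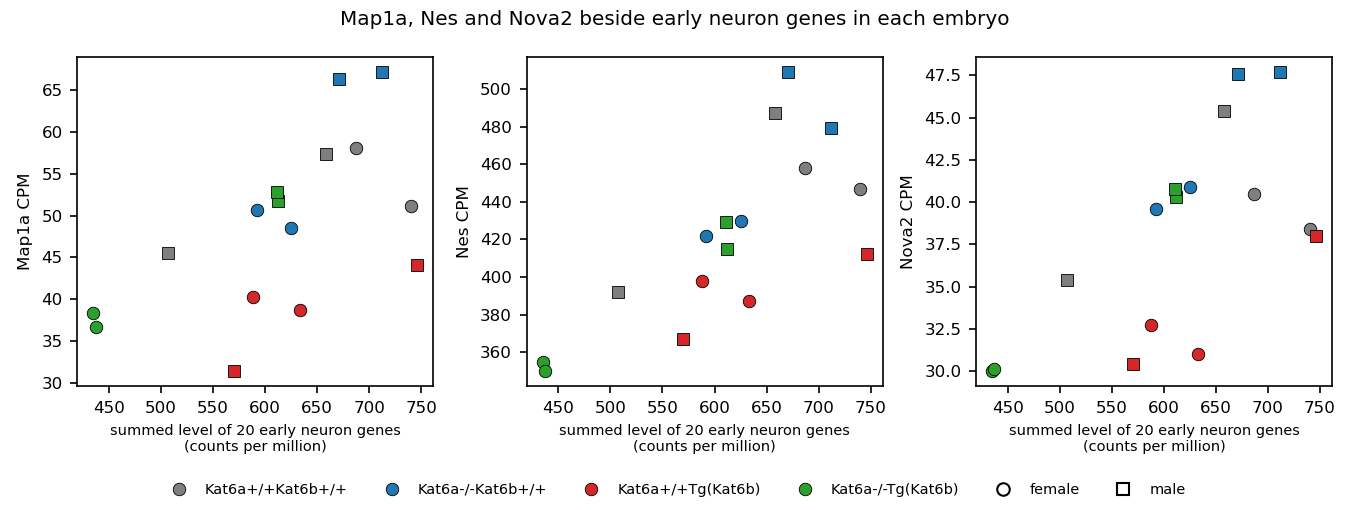
CPM of Map1a, Nes and Nova2 (y axes) against the summed CPM of 20 early neuron genes (x axes, without the TMM adjustment) in each embryo. Points are coloured by genotype, with circles for females and squares for males, and no axis starts at 0. The 2 Kat6a-/-Tg(Kat6b) females sit at the lower left of each panel (435 and 437 CPM of neuron genes), and the Kat6a+/+Tg(Kat6b) embryos lie low in Map1a (31.4 to 44.1 CPM) over neuron sums of 570 to 746 CPM.

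Of the 5 genes that did not pass in Kat6a-/- embryos, Adgrl1 came closest. It was at 124, 124, 129 and 127 CPM without and 119, 113, 116 and 108 CPM with the transgene. The groups did not overlap, as for 15.2% of all genes tested, and the log2 fold change was -0.14 (SE 0.0437, edgeR FDR = 0.0557). It passed with length offsets (edgeR FDR = 0.0244) and with the 8 embryos alone (edgeR FDR = 0.00406). Med13l was at 76.0, 79.8, 83.2 and 88.4 CPM without and 77.4, 71.3, 78.9 and 72.4 CPM with the transgene (-0.08, SE 0.0523, edgeR FDR = 0.372).

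Nrk, Masp2 and Kbtbd11 had log2 fold changes of the opposite sign in the Kat6a-/- embryos. Nrk was at 10.5, 12.1, 15 and 15.2 CPM without and 15.9, 12.8, 19.7 and 12.4 CPM with the transgene, with overlap (0.32, SE 0.106, edgeR FDR = 0.0667). DESeq2 called this difference (adjusted p = 0.0479) and limma-voom did not (0.0701). Masp2 was at 2.66, 2.55, 2.90 and 2.87 CPM without and 2.93, 1.33, 1.05 and 1.56 CPM with it (-0.43, SE 0.221, edgeR FDR = 0.250). Replicate 1 of the transgenic group was as high as the other genotype, and without that embryo the log2 fold change of Masp2 was -0.89 (edgeR FDR = 0.0234).

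Kbtbd11 was at 68.8, 66.6, 65.0 and 70.5 CPM without the transgene and 64.4, 59.3, 61.0 and 57.6 CPM with it. All transgenic embryos were below all others, the reverse of its order with KAT6A present (-0.16, SE 0.0558, edgeR FDR = 0.0844). It passed with length offsets (edgeR FDR = 0.0270) and with the 8 embryos alone (edgeR FDR = 0.0109). As the difference between the transgene effects, Kat6a-/- minus Kat6a+/+, the fit gave -0.49 (SE 0.0804) for Kbtbd11, -1.49 (SE 0.309) for Masp2, 0.96 (SE 0.154) for Nrk, 0.24 (SE 0.106) for Map1a, 0.19 (SE 0.0751) for Med13l and 0.11 (SE 0.0624) for Adgrl1. For Nes it was 0.02 (SE 0.0588), for Nova2 0.06 (SE 0.0826) and for Tti2 0.06 (SE 0.0948). These differences contain the contrast that chose the genes and are given as a description.

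**Figure D5:**
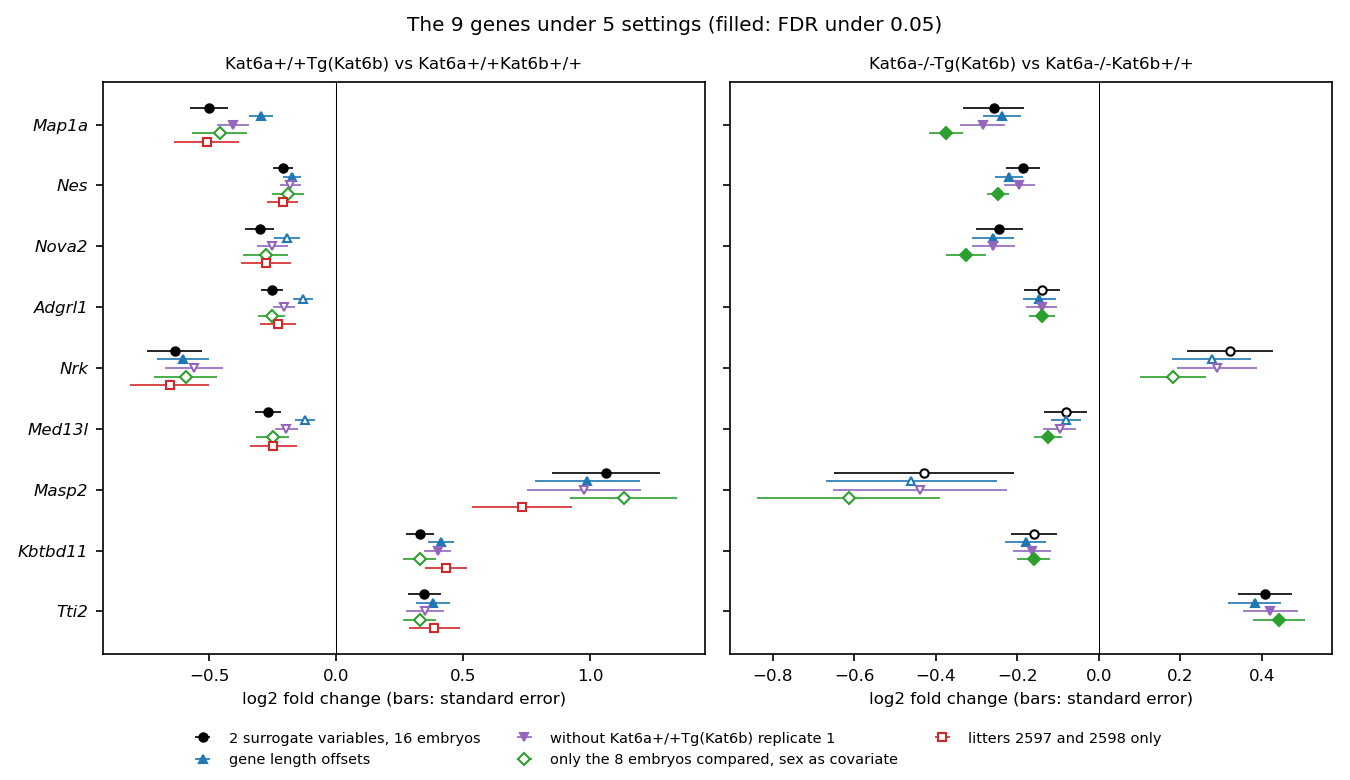
Log2 fold change with its standard error (x axis) of the 9 genes (y axis) with the transgene in Kat6a+/+ embryos (left) and Kat6a-/- embryos (right) under 5 settings; filled symbols have an FDR under 0.05, and the litter fit exists for the left panel only. Tti2 keeps to the right of 0 in both panels (0.35 and 0.41 in the model of 16 embryos), and Nrk, Masp2 and Kbtbd11 lie on opposite sides of 0.

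Kat6a-/-Kat6b+/+ embryos, which lack KAT6A and the transgene, were furthest from wild type in Masp2 and Kbtbd11. The log2 fold change was 0.53 (SE 0.222) for Masp2 and 0.30 (SE 0.0547) for Kbtbd11. The mean of Kbtbd11 was 67.7 ± 2.4 CPM in these embryos and 55.0 ± 3.97 CPM in wild type (SD, n = 4). For Nova2 it was 0.15 (SE 0.0556), for Map1a 0.14 (SE 0.0711), for Med13l 0.11 (SE 0.0506), for Nes 0.05 (SE 0.0399), for Adgrl1 0.05 (SE 0.0422), for Nrk -0.05 (SE 0.104) and for Tti2 -0.13 (SE 0.0657). Kat6a-/-Tg(Kat6b) embryos lay within 0.15 of wild type on the log2 scale for 7 genes. The exceptions were Tti2 at 0.28 (SE 0.0678) and Nrk at 0.27 (SE 0.109). Both comparisons share wild-type embryos with the contrast that chose the genes and are given without a test. On chromosome 8, Kbtbd11 and Tti2 both lie within 10 Mb of Kat6a. The mean of Kbtbd11 was above the wild-type mean in each of the other 3 genotypes (60.6 to 69.0 CPM, beside 55.0). That of Tti2 was above it in the 2 transgenic genotypes only (25.2 and 24.8 CPM, beside 20.1). Whether their position near Kat6a had a part in these levels was not tested.

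Masp2 and Kbtbd11 have large overlaps with another gene. Tardbp, which encodes the RNA-binding protein TDP-43, lies on the opposite strand over 60.3% of the exon bases of Masp2 and was at 739 ± 17.3 CPM in wild type and 752 ± 5.49 CPM with the transgene and KAT6A (SD, n = 4), far above Masp2. Its log2 fold change was 0.03 (SE 0.0288) with KAT6A present and 0.11 (SE 0.0297, edgeR FDR = 0.0304) in the Kat6a-/- embryos, where that of Masp2 was negative. For Kbtbd11 the opposite-strand gene model Gm37844 covers 24.8% of the exon bases. Opposite-strand genes covered 15.4% of the exon bases of Adgrl1, 2.53% of Map1a and 0.348% of Med13l, and none of Nes, Nova2 or Nrk.

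The relatives of each gene were then counted in lists drawn up for its pathway. Over all genes, edgeR called 0.14% with KAT6A present and 7.14% in the Kat6a-/- embryos. Whether any list exceeded these shares was not tested. With KAT6A present, Kat6b and Nefm were the only other genes of these lists past the edgeR threshold, and limma-voom called no further one. DESeq2, which called 219 genes in that contrast, also called Map1b, Dcx, Notch1, Adgrl3, Tenm3, Med13, Prkdc, Trrap and, among the neural crest markers, Tfap2a, genes named here after their values were seen. In the Kat6a-/- embryos 3 of 16 other microtubule-associated proteins fell with the transgene and none rose, namely Map2 (-0.37, SE 0.0533), Stmn2 and Dcx. Map1b, the closest relative of Map1a, was at 403 CPM without and 298 CPM with the transgene, with wide errors (-0.33, SE 0.149, edgeR FDR = 0.219). Of 20 other splicing regulators of neurons 3 fell, Celf3 (-0.42, SE 0.0975), Elavl3 (-0.29, SE 0.0764) and Celf2 (-0.19, SE 0.0555), and none rose. The paralogue Nova1 was at -0.07 (SE 0.0714). None of 12 other latrophilins, teneurins and FLRT genes passed the edgeR test (2 at an unadjusted p under 0.05, 0 by DESeq2 and by limma-voom), with Adgrl3 nearest at -0.25 (SE 0.0850, edgeR FDR = 0.0740) and Adgrl2 at 0.00 (SE 0.0436).

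The counts of the next lists also stand beside 7.14% of all genes called in the Kat6a-/- embryos. Among 7 kinases related to Nrk, Mink1 rose (0.19, SE 0.0512, edgeR FDR = 0.0256), and Tnik (0.04, SE 0.0894) and Map4k4 (-0.02, SE 0.0319) did not pass. Of 32 other Mediator subunits Med23 rose (0.14, SE 0.0369) and Med29 fell (-0.24, SE 0.0725), while Med13, the paralogue of Med13l, was at -0.13 (SE 0.104). Of 9 other complement genes listed for Masp2 that passed the filter, C1qb (-1.42, SE 0.400) and C1qc (-1.56, SE 0.469) fell by edgeR. They encode subunits of the related C1q recognition protein made by macrophages, which is not part of the lectin pathway itself. Their levels without the transgene were low, at 1.42 and 1.09 CPM. DESeq2 gave no adjusted p for either, and limma-voom called C1qb alone. Masp1 was at 0.22 (SE 0.0872, edgeR FDR = 0.127). Of 20 other genes for BTB-kelch proteins and their ubiquitin ligase partners Cul3 and Rbx1, Kbtbd8 rose (0.25, SE 0.0627). For the TTT co-chaperone, neither partner of Tti2 passed: Telo2 was at -0.01 (SE 0.0548) and Tti1 at -0.05 (SE 0.0475), and of 12 genes of its list Pih1d1 fell (-0.26, SE 0.0576). Of 8 subunits of the KAT6 complex Kat6b (2.05, SE 0.0737) and Ing5 (0.18, SE 0.0473) rose.

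Markers of other tissues were measured in the same libraries. Trophoblast markers were near 0, with 12 genes summing to 2.66 to 4.50 CPM in any embryo and Tpbpa and Ctsq at 0 in all groups. The sums of 10 yolk sac endoderm genes were 20.5 to 66.6 CPM in wild type and 9.07 to 58.3 CPM in Kat6a+/+Tg(Kat6b) embryos, and 18.0 to 25.7 CPM in Kat6a-/-Kat6b+/+ against 46.3 to 66.0 CPM in Kat6a-/-Tg(Kat6b) embryos. The last 2 did not overlap, and the part of this in the differences of the 9 genes was not tested. The 8 erythroid genes summed to 3300 to 5230 CPM in wild type, 4660 to 5780 CPM in Kat6a+/+Tg(Kat6b), 2780 to 5320 CPM in Kat6a-/-Kat6b+/+ and 3550 to 4370 CPM in Kat6a-/-Tg(Kat6b) embryos. The 8 neural crest genes summed to between 272 and 326 CPM in every embryo. In the Kat6a-/- contrast edgeR called 0 of 3 trophoblast genes that passed the filter (1 at an unadjusted p under 0.05), 0 of 8 yolk sac genes (3, and 1 by DESeq2, which gave no adjusted p for another), 0 of 8 erythroid genes (0) and 0 of 8 neural crest genes (2, and 1 by DESeq2 and by limma-voom).

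The lower genes also varied together from embryo to embryo. After the genotype mean was taken off, Pearson's r of log2 CPM over the 16 embryos was 0.94 between Nes and Nova2, 0.93 between Map1a and Nes, 0.92 between Map1a and Nova2, 0.90 between Nes and Nrk and 0.87 between Med13l and Nrk. Adgrl1 stood further apart, with r of 0.50 to Map1a and 0.23 to Med13l, and Masp2 had r between -0.02 and 0.24 with every other gene. Tti2 had r of -0.62 with Nrk and 0.36 with Kbtbd11. The embryos share litters and the long-gene depletion of 1 library, so these values are descriptive. Over the 16 embryos without removing genotype, the 2 genes most like Map1a were Onecut2 (r = 0.967), a transcription factor gene, and Fat4 (0.956), those most like Nes were Akap6 (0.955) and Nova2 (0.946), and those most like Nova2 were Map1a (0.953) and Nes (0.946). For Adgrl1 they were Nrip1 (0.885) and Plec (0.879), for Nrk the extracellular matrix genes Fbn1 (0.925) and Frem1 (0.918), and for Med13l Mtor (0.961) and Tanc2 (0.961). The genes named so far have listed lengths from 6126 bases (Nes) to 17515 (Plec), beside a median of 3116 over the genes tested. Onecut2, Nrip1 and Plec are among the 22 genes past the threshold in the contrast that chose the genes. The part of length in these r values was not tested. The genes that were higher had Rnf182 (0.844) and Riok3 (0.837) beside Masp2, Trpm2 (0.790) and Zfp688 (0.769) beside Kbtbd11, and Gm6548 (0.938) and Ccna2 (0.904) beside Tti2.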

How the data were processed

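RNA from 16 whole E9.5 embryos was sequenced. The authors deposited whole-number counts per gene for each embryo, with gene lengths and no normalization. Per the study's methods, libraries were made with the TruSeq kit v2 and reads were aligned to mm39 with Rsubread. The submitters' processing notes also name bcl2fastq and featureCounts. The annotation release, strand setting and handling of shared reads are not given in the sources used here. Counts were analysed in R 4.3.3 with edgeR 4.0.16 (filterByExpr, minimum count 10; TMM; robust quasi-likelihood test) and 2 surrogate variables from sva 3.50.0, which protected genotype, with Benjamini-Hochberg adjustment over 15679 genes and a threshold of 0.05. DESeq2 1.42.0 and limma 3.58.1 (voom) served as alternatives. The length offset was a lowess trend of log2 CPM on gene length for each library (span 0.3). The scripts were tested on simulated data. Groups, sexes and litters came from the labels. Labels do not say how the embryos were chosen, so p-values measure the spread between these embryos, and depth sets counting error only. The 9 genes and the gene lists were chosen with earlier results of these data known. Genes named beside them were those of each list called in either transgene contrast, up to 6 a list by FDR, otherwise up to 3 relatives, and the 2 genes of highest r. A further fit, without transgenic replicate 1 in litters 2597 and 2598, was added after the data were seen.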

Additional observations from a re-analysis of the deposited data

Results flagged for a closer look

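Kbtbd11 was flagged because the transgene went with opposite directions in the 2 Kat6a states. This was not particular to it: Nrk and Masp2 also changed sign, with overlap between the Kat6a-/- groups. The transgene effects differed by 0.96 for Nrk and -1.49 for Masp2, beside -0.49 for Kbtbd11. For Kbtbd11, all 4 Kat6a+/+Tg(Kat6b) embryos were above the wild-type mean (log2 fold change 0.33, SE 0.0554). All 4 Kat6a-/-Tg(Kat6b) embryos were below the Kat6a-/-Kat6b+/+ mean (log2 fold change -0.16, SE 0.0558, edgeR FDR = 0.0844). The difference was not tested, since the first of these contrasts chose the gene, and the litters of Kat6a-/-Tg(Kat6b) embryos held no other genotype. In 36 groups of 4 embryos, 1 for each gene and genotype, no lone value lay beyond Dixon's limit of 0.829, a limit that chance passes in about 1 in 20 groups.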

How the results depend on the processing

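The sign of the log2 fold change of each of the 9 genes was the same in every alternative run, in both transgene contrasts. With KAT6A present the signs were largely fixed by the choice of the genes. In both contrasts the runs share embryos, so the constant signs are no separate evidence. The calls were not. In the Kat6a-/- embryos, 4 of the 9 genes and 1119 genes in all were called. Without surrogate variables these counts were 1 and 614, with 1 surrogate variable 2 and 606, with sex as covariate 2 and 589, with at least 10 counts in every embryo 1 and 98 (4 surrogate variables were then estimated), and with the 8 embryos alone 7 and 2356. With the replicate block 2 of the 9 genes were called, Nova2 and Tti2, among 869 genes. Tti2 was called in every fit of this contrast. Leaving out 1 embryo gave 1 to 6 of the 9 genes and 492 to 1671 genes. The lowest count, 1, came without Kat6a-/-Tg(Kat6b) replicate 4. Fewer genes were called in all without that embryo (583), Kat6a-/-Tg(Kat6b) replicate 2 (574) or 3 (636), and Kat6a-/-Kat6b+/+ replicate 1 (492) or 2 (668).

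With KAT6A present, where 9 of the 9 genes and 22 genes in all passed, the counts were 2 and 5 without surrogate variables, with 1 of them, or with sex as covariate, 1 and 5 with the replicate block, and 0 and 3 with the 8 embryos alone. They were 0 and 1 with litter as a block over 12 embryos or over the 6 embryos of litters 2597 and 2598, and 2 and 15 in those litters without transgenic replicate 1. At least 10 counts in every embryo left 3 of the 9 genes. Over all genes, DESeq2 called 219 (and gave no adjusted p for Masp2), no filter 315, and gene length offsets 40. Limma-voom left 8 of the 9 genes, without Masp2 (adjusted p = 0.0609), among 18 genes. Leaving out 1 embryo gave 0 to 9 of the 9 genes and 1 to 108 genes. The count was 0 of 9 without wild-type replicate 1 or 3, 5 without wild-type replicate 2, 2, 1 and 3 without transgenic replicates 1, 3 and 4, 5 without Kat6a-/-Kat6b+/+ replicate 2, and 4 without Kat6a-/-Tg(Kat6b) replicate 2 or 4. Replicate numbers do not pair the embryos: of 24 pairs with the same number 10 had correlated deviations over 0.1 (range -0.255 to 0.215). The cause of these shifts was not tested. Depth limits Masp2 most, at 1.05 to 4.86 CPM.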
